A study of Mus musculus with 6 samples.

Results

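The genes described here are 10 parts of the vasopressin and cyclic AMP (cAMP) pathway, measured in cells of newborn mouse kidneys that the labels give as sorted derivatives of the ureteric bud. They are the receptors Avpr2 and Avpr1a, the adenylyl cyclases Adcy3 and Adcy6, the protein kinase A (PKA) subunits Prkar2b, Prkar2a and Prkaca, the PKA anchor Akap12, the phosphodiesterase Pde4d and the transcription factor Creb1. They were chosen by name: every probe that was not a control and whose RefSeq accession belonged to one of these symbols was taken. This gave 16 probes of 10 genes, out of 55681 probes on the array and 20887 genes that could be named. All 16 probes passed the filter on dim signals that left 29002 probes for testing. Avpr1a, Adcy3, Adcy6, Prkar2a and Prkaca had 1 probe each, Avpr2, Akap12, Pde4d and Creb1 had 2, and Prkar2b had 3.

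Vasopressin acts on collecting duct principal cells through the V2 receptor, which couples to the stimulatory G protein and so to adenylyl cyclase. The cAMP made there binds the regulatory subunits of PKA and frees the catalytic subunits, which are held near their targets by anchoring proteins and whose action is ended as phosphodiesterases break cAMP down. In the collecting duct this pathway is known for moving the aquaporin-2 water channel to the apical membrane and, through CREB, for raising its transcription.

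Two-colour Agilent arrays compared RNA of C57BL/6 mice at postnatal day 1 in 2 groups of 3 pools. Both groups carried the Hoxb7cre driver, which is active in the ureteric bud lineage, and the R26RtdTomato reporter, and both came from kidneys under salt stress. WT mice were Bdkrb2+/+ and MUT mice were Bdkrb2f/f, so that the bradykinin B2 receptor gene is floxed only in MUT, and cells were sorted as positive for GFP and tdTomato. The design calls the pools biological replicates. How many mice went into each is not stated in the labels, and p-values measure only the spread between these pools. Each pool was labelled with Cy5 and set against the Cy3-labelled RNA of WT pool 1. The array of WT pool 1 therefore compared an RNA with itself. A value below is a log2 ratio of a pool to WT pool 1, and a difference is the mean of the MUT pools minus the mean of the WT pools, given with its standard error (SE).

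Each array had between 27022 and 31310 probes with a Cy5 signal well above background, and having 6 arrays limits the precision. The SD of the log2 ratios was 0.15 to 0.25 on WT arrays and 0.50 to 0.65 on MUT arrays. Row 1 of the slide held WT pool 1 and the 3 MUT pools, while row 2 held the remaining WT pools. With the row as a block, the WT arm is the single array of WT pool 1 against itself, which is then assumed to vary as the other arrays do. The single Bdkrb2 probe did not rise well above background on any of the 6 arrays, so it gives no check of the labels. Of the 10 principal cell markers, which include the aquaporins and the epithelial sodium channel, 9 were well above background on all 6 arrays, and the probe of Scnn1g was not tested. Markers of other cell types were also well above background on all arrays, in 10 of 10 cases for renal stroma, 7 of 7 for nephron progenitors, 8 of 8 for endothelium and 8 of 8 for leukocytes, as were all 9 markers of the thick ascending limb and distal tubule. The RNA thus held transcripts that mark cells outside the collecting duct.

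In the comparison of MUT with WT pools, which sets the conditional Bdkrb2 null against the wild type, both vasopressin receptors fell, Avpr2 by 4.26-fold and Avpr1a by 3.95-fold. Adcy6 fell less, and Prkar2b, Akap12 and the dim Adcy3 rose. Prkar2a, Prkaca, Pde4d and Creb1 were not called at their brightest probe. Each gene is represented by its brightest tested probe, and a call is an adjusted p under 0.05 in limma's moderated test over all 29002 probes, with Benjamini-Hochberg adjustment. By this rule 3 of the 10 genes rose, 3 fell and 4 were not called, where 32.8% of the 14585 tested genes were called, 14.0% higher and 18.8% lower. Adcy3 passed the filter through the MUT arrays alone, and with the filter set to all 6 arrays 2 genes rose and 3 fell. With the arrays set to spike-in controls after loess, 7 of the 10 were higher and 2 lower, the vasopressin receptors. With these controls without loess, 4 were higher and 2 lower. The median difference of the 10 genes was -0.07, against -0.02 over all tested genes. Of the 16 probes, 6 were higher and 4 lower, against a share of 26.1% called over all probes. In 6 of the 10 genes, with the dim Adcy3 among them, the values of the WT and MUT pools did not overlap, against 52.5% of all tested genes.

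**Figure D1:**
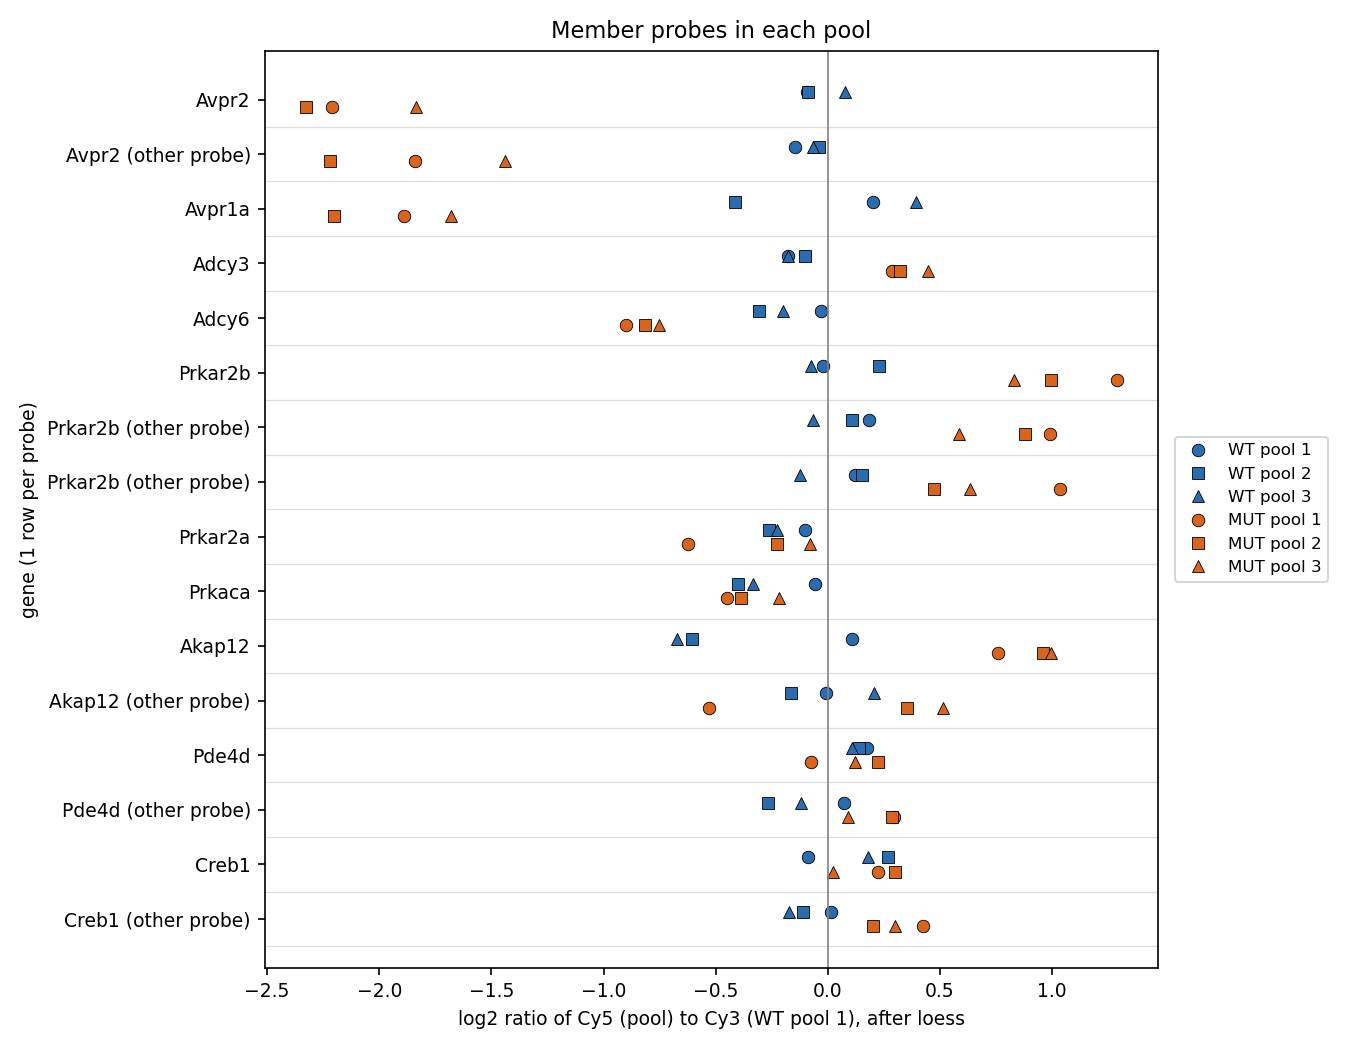
Log2 ratio to WT pool 1 after loess (x axis) of each of the 16 probes (rows) in each of the 6 pools, with WT pools in blue and MUT pools in orange and 1 marker shape per pool number. Both Avpr2 probes and the Avpr1a probe sit at -1.44 or lower in all MUT pools and at -0.42 or higher in all WT pools.

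Avpr2, the V2 receptor of principal cells that signals through cAMP, was low in every MUT pool. Its brightest probe had log2 ratios of -0.09, -0.09 and 0.08 in WT pools 1 to 3, against -2.21, -2.33 and -1.84 in MUT pools 1 to 3. The groups were far apart, and MUT pool 3 was the least reduced. The difference was -2.09 ± 0.14 (SE, n = 3 pools per group), a 4.26-fold fall with a limma adjusted p of 0.000365 and a 95% interval from -2.42 to -1.76. The Cy5 signal at this probe was 1650, 1080 and 1328 units in the WT pools and 438, 423.5 and 521 units in the MUT pools, above a local background of 66 to 74 units, so the reduced signals were still measured. The second Avpr2 probe had ratios of -0.15, -0.04 and -0.07 in WT pools and -1.84, -2.22 and -1.44 in MUT pools. It showed the same order of the groups with a difference of -1.75 ± 0.19 (SE, limma adjusted p = 0.000711). The 2 probes differed by 0.34 in the size of the fall, with an exact two-sided permutation p of 0.1, the smallest that 3 against 3 pools allow.

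Avpr1a, the V1a receptor, which couples to calcium signalling and not to cAMP, was also low in every MUT pool. Its probe had log2 ratios of 0.20, -0.42 and 0.39 in WT pools 1 to 3, against -1.89, -2.20 and -1.68 in MUT pools 1 to 3. The groups did not overlap, and WT pool 2 was lower than the other WT pools. The difference was -1.98 ± 0.22 (SE, n = 3 per group), a 3.95-fold fall with a limma adjusted p of 0.000882 and an interval from -2.50 to -1.47. Cy5 signals were 931.5, 403 and 912 units in the WT pools and 260.5, 228 and 192 units in the MUT pools. At their brightest probes both receptors fell also where the arrays were set to spike-in controls after loess, a scale that put the median tested probe 0.98 above 0 for MUT minus WT: Avpr2 was then at -1.12 (limma adjusted p = 0.0126) and Avpr1a at -1.01 (0.0209). The second Avpr2 probe was at -0.77 and lost its call there (limma adjusted p = 0.0659). Within row 1 of the slide the differences were -2.03 and -2.12.

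The principal cell markers fell in 9 of 9 tested cases, beside Avpr2, where 18.8% of all tested genes fell. These markers had a median difference of -1.67. Their median log2 ratio was -0.0054, -0.092 and -0.0012 in WT pools 1 to 3 and was -1.99, -1.96 and -1.62 in MUT pools 1 to 3. All 9 tested intercalated cell markers fell as well (median -2.42), as did all 9 of the thick ascending limb and distal tubule (median -2.60). In bulk RNA, fewer cells of a type and less RNA per cell cannot be told apart, and the part of these shifts in the fall of the receptors was not tested.

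The promoters of the receptors are shown because both genes fell and a cAMP response element is the site through which CREB acts. They are the 250 bases before the annotated start in RefSeq's GRCm38.p6 tables, and both lie on the + strand. Capitals mark the short site TGACG, searched on both strands (its reverse complement is CGTCA), which overlaps the full site TGACGTCA. The Avpr2 window is chrX:73891852-73892101 and the Avpr1a window is chr10:122448249-122448498.
Avpr2: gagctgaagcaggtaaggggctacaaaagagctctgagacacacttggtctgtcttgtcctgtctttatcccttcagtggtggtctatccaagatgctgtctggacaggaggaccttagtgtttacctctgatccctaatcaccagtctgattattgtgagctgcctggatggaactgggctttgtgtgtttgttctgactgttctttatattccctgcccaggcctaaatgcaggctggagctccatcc
Avpr1a: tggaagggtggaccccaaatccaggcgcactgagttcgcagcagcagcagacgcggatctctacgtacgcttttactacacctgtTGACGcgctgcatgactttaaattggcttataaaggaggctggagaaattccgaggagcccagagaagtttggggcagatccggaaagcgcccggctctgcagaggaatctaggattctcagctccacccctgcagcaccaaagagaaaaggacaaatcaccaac
The Avpr1a window held 1 short site, 165 bases before the start, and these letters were not found in the Avpr2 window. Of the 10 genes 8 had an entry, with 11 windows, and 2 of the 11 held the short site, where 17.8% of all 32851 windows did. The other was a Prkaca window, with short sites 120 and 6 bases before the start. The full site was in 0 of the 11 windows and in 1.55% of all windows. A match describes the sequence and is not evidence of binding.

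The list of the receptor family and its hormones holds 7 genes, of which 5 were tested. Besides Avpr2 and Avpr1a these were Oxtr, which rose, Oxt, which fell, and Lnpep, which was not called. Oxtr, the oxytocin receptor, moved opposite to the vasopressin receptors. Its log2 ratios were 0.04, -0.40 and -0.50 in WT pools 1 to 3, against 2.04, 1.68 and 1.94 in MUT pools 1 to 3. It rose 4.51-fold, with a difference of 2.17 ± 0.17 (SE, n = 3 per group, limma adjusted p = 0.000365). Beside it the 10 renal stroma markers had medians of 0.12, -0.94 and -1.43 in the WT pools and 1.57, 1.35 and 1.30 in the MUT pools. Of these 10 markers 8 rose, where 14.0% of all tested genes did. Nephron progenitor markers (6 of 7, median 1.70) and leukocyte markers (7 of 8, median 1.11) rose too, while 7 of 8 endothelial markers fell (median -0.91). The other leukocyte marker, Ptprc, was called lower, at -0.43 (limma adjusted p = 0.0210). The spike-in scale after loess put the median tested probe at 0.98, so the endothelial fall holds relative to the typical probe. The part of these markers in the Oxtr rise was not tested. Oxt, which encodes oxytocin, fell by 1.31 ± 0.18 (SE, limma adjusted p = 0.00197), but was at -0.33 and not called with the spike-in controls after loess. Lnpep, an aminopeptidase that degrades both hormones, was at -0.08 ± 0.11 (SE) and not called. It was called higher with the spike-in controls after loess, at 0.90 (limma adjusted p = 0.0357), but not without loess (0.78, limma adjusted p = 0.0584). The probes of Avpr1b, the V1b receptor, and Avp, the vasopressin precursor, were not well above background on any array.

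**Figure D2:**
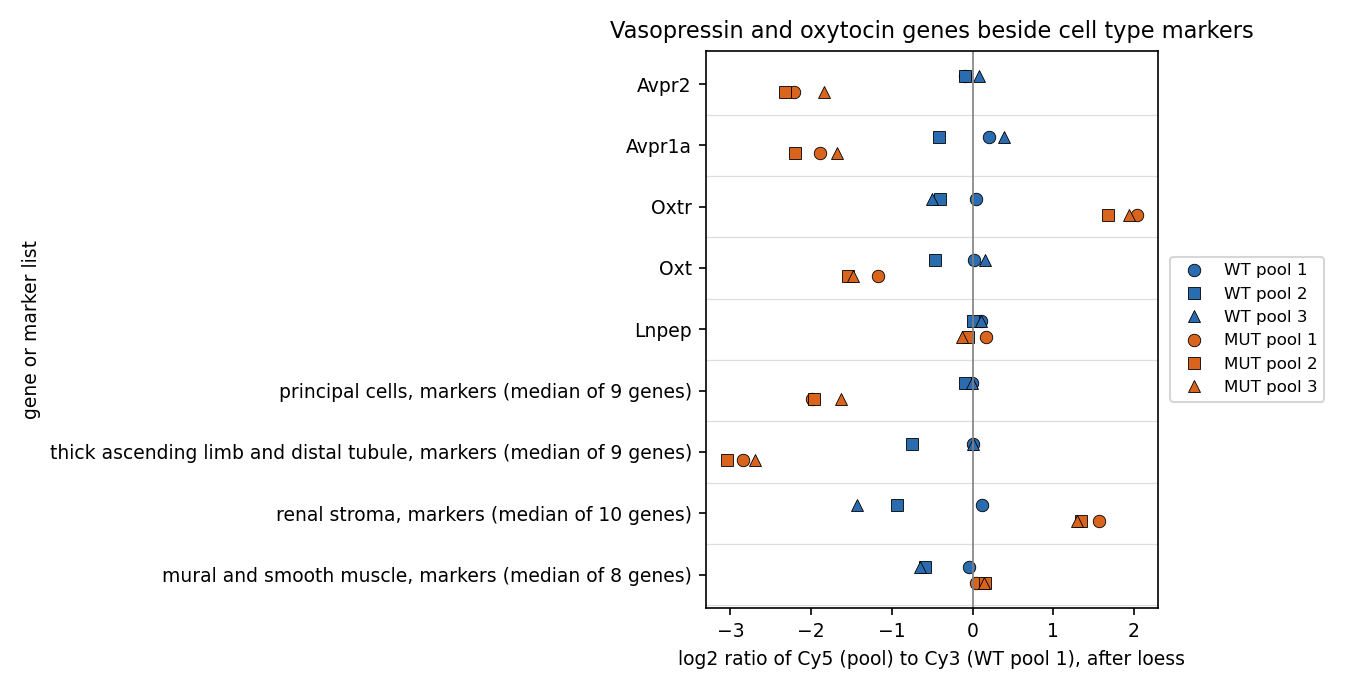
Log2 ratio to WT pool 1 after loess (x axis) in each pool for Avpr2, Avpr1a, Oxtr, Oxt and Lnpep, and the medians of 4 marker lists (rows), with WT pools in blue and MUT pools in orange. Avpr2 and Avpr1a lie at -1.68 or lower in MUT pools, while Oxtr lies between 1.68 and 2.04 there.

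The cyclases split. Adcy6, a calcium-inhibited adenylyl cyclase that acts downstream of the V2 receptor in principal cells, had log2 ratios of -0.03, -0.31 and -0.20 in WT pools 1 to 3. It had -0.90, -0.82 and -0.75 in MUT pools 1 to 3. All MUT pools were below all WT pools, and the values within each group were close. The difference was -0.64 ± 0.11 (SE, n = 3 per group), a 1.56-fold fall with a limma adjusted p of 0.00481. It was -0.79 within row 1 of the slide. Set to the spike-in controls, Adcy6 was higher in MUT pools by 0.33 after loess and by 0.25 without it, not called in either case, so its fall holds relative to the typical probe.

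Adcy3, a calmodulin-regulated cyclase first known from olfactory neurons, was near the limit of measurement. Its Cy5 signal was 100, 92 and 89 units in WT pools 1 to 3 over a local background of 63 to 67 units, and none of these counted as well above background. It was 170.5, 171 and 194 units in the MUT pools, well above background on all 3. The log2 ratios were -0.18, -0.10 and -0.18 in the WT pools and 0.29, 0.32 and 0.45 in the MUT pools. The groups did not overlap, but the WT values come from signals near background, so their narrow spread says little about variation between pools. Adcy3 was 1.42-fold higher in MUT pools (limma adjusted p = 0.00784), with a log2 interval from 0.28 to 0.73. The WT side of this fold is the dim signal of the WT pools. The Adcy3 probe entered the test through the MUT arrays alone, so this p is affected by that selection. With no filter on dim probes the adjusted p by limma was 0.00546, but this fit rests on the same dim WT values and their narrow spread. With slide row as a block the difference was 0.53 and the call was lost (limma adjusted p = 0.0898).

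The gap between the cyclases within each array, where any offset common to the array cancels, is given as a description because Adcy3 was near background in WT pools. Adcy6 minus Adcy3 was 0.15, -0.21 and -0.02 in WT pools 1 to 3, against -1.19, -1.14 and -1.20 in MUT pools 1 to 3. The MUT pools lay together and below every WT pool, with means of -1.17 ± 0.03 (SD, n = 3) against -0.03 ± 0.18 (SD, n = 3). The change was -1.15, and it was -1.68 with a background offset of 1 and -2.38 in the authors' value table, so its size depends on how the dim Adcy3 signal is treated. Of the 8 tested members of the cyclase list 3 rose and 2 fell, where 14.0% of all tested genes rose and 18.8% fell. Adcy2, a calcium-insensitive cyclase, rose by 1.12 ± 0.18 (SE, limma adjusted p = 0.00343), passed the background limit on 2 of 3 WT arrays, and lost its call with slide row blocked (0.90, limma adjusted p = 0.0781). Named after their values were seen, Adcy7 was at 0.75 ± 0.16 and Adcy1 at -0.87 ± 0.21 (SE). Adcy7 lost its call with slide row as a block (limma adjusted p = 0.177), and Adcy1 without WT pool 1 or WT pool 3 (0.0581 and 0.0827). On the spike-in scale Adcy1 was at 0.11 after loess and -0.038 without it, not called in either case.

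Of the PKA subunits, Prkar2b, the RII-beta regulatory subunit, rose. Its brightest probe had log2 ratios of -0.02, 0.23 and -0.07 in WT pools 1 to 3, against 1.29, 1.00 and 0.83 in MUT pools 1 to 3. All MUT pools were above all WT pools, with MUT pool 1 the highest. The difference was 0.99 ± 0.15 (SE, n = 3 per group), a 1.99-fold rise with a limma adjusted p of 0.00259 and an interval from 0.65 to 1.33. Cy5 signals were 1389, 1003 and 1028.5 units in the WT pools and 5230.5, 3550.5 and 2911.5 units in the MUT pools.

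The other Prkar2b probes were dimmer. One had ratios of 0.18, 0.11 and -0.07 in WT pools and 0.99, 0.88 and 0.59 in MUT pools, a difference of 0.74 ± 0.13 (SE, limma adjusted p = 0.00603). The last had 0.12, 0.15 and -0.12 in WT pools and 1.03, 0.47 and 0.63 in MUT pools, a difference of 0.66 ± 0.16 (SE, limma adjusted p = 0.0199). Prkar2b thus rose at 3 of 3 probes, with no overlap between the groups at any of them. With slide row as a block the difference at the brightest probe was 1.06 (limma adjusted p = 0.0397), while the dimmer probes were at 0.63 and 0.59 and not called (0.113 and 0.207). The last probe also lost its call without WT pool 1 (0.0542) or WT pool 3 (0.0900).

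Prkar2a, the RII-alpha subunit and close relative of Prkar2b, had log2 ratios of -0.10, -0.26 and -0.23 in WT pools 1 to 3, against -0.62, -0.22 and -0.08 in MUT pools 1 to 3. The groups overlapped, and MUT pool 1 was the lowest of all. The difference was -0.11 ± 0.15 (SE, limma adjusted p = 0.617), with an interval from -0.46 to 0.23. Prkaca, the alpha catalytic subunit, had ratios of -0.06, -0.40 and -0.34 in WT pools and -0.45, -0.39 and -0.22 in MUT pools. These overlapped too, with WT pool 1 the highest, and the difference was -0.09 ± 0.13 (SE, limma adjusted p = 0.648, interval from -0.38 to 0.21). Cy5 signals at the Prkaca probe were 128 to 218 units over a local background of 67 to 77 units. With the spike-in controls after loess both were called higher, Prkar2a at 0.86 (limma adjusted p = 0.0425) and Prkaca at 0.89 (0.0375). With these controls without loess neither was called (limma adjusted p = 0.0815 and 0.0784).

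Prkar2a minus Prkar2b within an array was -0.08, -0.49 and -0.16 in WT pools 1 to 3, against -1.91, -1.22 and -0.91 in MUT pools 1 to 3. The groups did not overlap, and MUT pool 1 had the widest gap between the subunits. The means were -0.24 ± 0.22 (SD, n = 3) and -1.35 ± 0.51 (SD, n = 3), a change of -1.11 with an exact two-sided permutation p of 0.1 (0.15 adjusted over 3 gene pairs). Avpr2 minus Avpr1a, in contrast, was -0.29, 0.33 and -0.32 in WT pools and -0.32, -0.12 and -0.16 in MUT pools. These values overlapped, and the change was -0.11 with an exact two-sided permutation p of 0.8. It was 0.10 without WT pool 2, so no direction is given. The difference between 2 such changes was not tested.

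**Figure D3:**
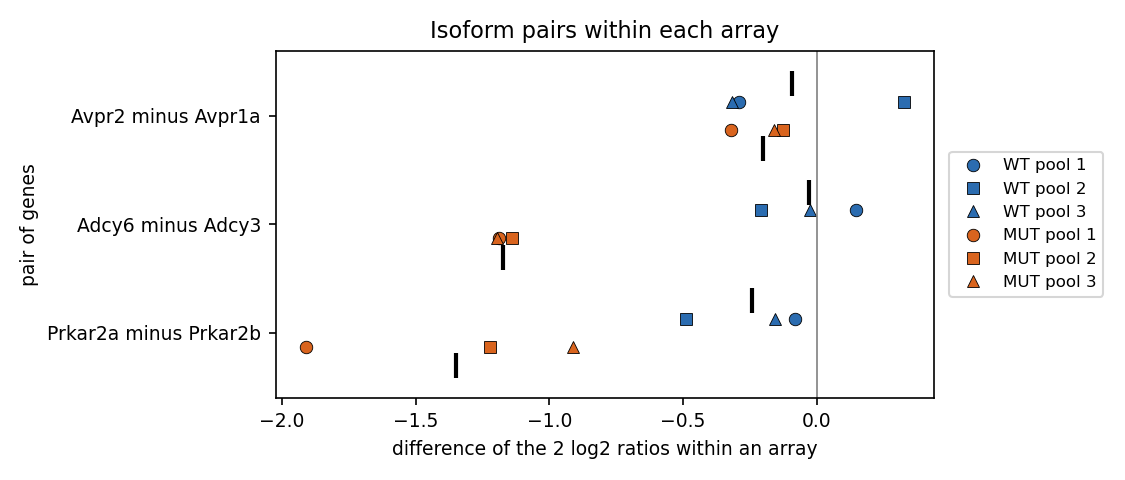
Difference of the log2 ratios of 2 related genes within each array (x axis) for 3 gene pairs (rows), with WT pools in blue, MUT pools in orange and black ticks at the group means (n = 3). The cyclase and regulatory subunit pairs are lower in all 3 MUT pools than in any WT pool, while the receptor pair overlaps.

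In the list of all PKA subunits, 7 of 7 were tested, with a median of -0.11. In this list 1 rose and 1 fell, where 14.0% of all tested genes rose and 18.8% fell. The one that fell was Prkar1a, the RI-alpha subunit, by 0.49 ± 0.10 (SE, limma adjusted p = 0.0118), and by 0.37 at its other probe. It was 0.48 higher on the spike-in scale after loess, and it lost its call without WT pool 3 (limma adjusted p = 0.0622) and with slide row as a block (0.162). The remaining regulatory and catalytic genes, named after their values were seen, were not called: Prkacb at -0.06, Prkar1b at -0.16 and Prkx at -0.33. With the spike-in controls after loess Prkacb was called higher, at 0.91 (limma adjusted p = 0.0331), while Prkar1b (0.81) and Prkx (0.65) were not called. Of 3 PKA inhibitor peptide genes 2 rose, where 14.0% of all tested genes did. Pkib rose by 0.70 ± 0.14 (SE, limma adjusted p = 0.00847) and Pkia by 0.45 ± 0.13 (SE, limma adjusted p = 0.0346). With slide row as a block neither was called (0.103 for Pkib and 0.418 for Pkia). Pkia also lost its call without WT pool 2, WT pool 3, MUT pool 2 or MUT pool 3 (limma adjusted p = 0.0884, 0.134, 0.0862 and 0.0558).

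Akap12, a scaffold that anchors PKA and binds protein kinase C, had the largest rise of the 10 genes in log2 ratio after loess. In the authors' value table Adcy3 was higher (1.77 against 1.40), and with slide row as a block Prkar2b was (1.06 against 0.80). Prkar2b was also higher with the mean of all tested probes of a gene (0.80 against 0.70). The brightest Akap12 probe had log2 ratios of 0.11, -0.61 and -0.67 in WT pools 1 to 3, against 0.76, 0.96 and 1.00 in MUT pools 1 to 3. All MUT pools were above all WT pools, and WT pool 1 stood above the other WT pools. The difference was 1.30 ± 0.21 (SE, n = 3 per group), a 2.45-fold rise with a limma adjusted p of 0.00359 and an interval from 0.82 to 1.77. Within row 1 of the slide, where WT pool 1 is the WT sample, it was 0.80 (limma adjusted p = 0.0358), with the spread taken from the other arrays. Without WT pool 1 it was 1.54. Cy5 signals were 3882, 1963 and 2290 units in the WT pools and 10897, 11396.5 and 9140.5 units in the MUT pools.

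The second Akap12 probe did not show the rise. Its ratios were -0.01, -0.16 and 0.20 in WT pools and -0.53, 0.36 and 0.51 in MUT pools, so that MUT pool 1 was the lowest of the 6 and the groups overlapped. The difference was 0.10 ± 0.26 (SE, limma adjusted p = 0.806), and 0.42 without MUT pool 1, where it was called (limma adjusted p = 0.0308). Its Cy5 signal was 109 to 276 units over a local background of 65.5 to 73.5 units. The change at the bright probe exceeded that at the dim one by 1.19 (exact two-sided permutation p = 0.1). The WT values of the bright probe followed the order of the renal stroma marker medians given above, 0.12, -0.94 and -1.43. This order was not particular to stroma, since the leukocyte marker medians (-0.04, -0.45 and -0.64) and the mural medians below had it too. WT pool 1 was also the array of an RNA against itself and the only WT array in row 1 of the slide. The 8 mural and smooth muscle markers had medians of -0.04, -0.59 and -0.65 in WT pools and 0.04, 0.16 and 0.14 in MUT pools. Of these 8 markers 2 were called higher, where 14.0% of all tested genes were. The part of these markers in the Akap12 rise was not tested.

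Of the 18 PKA anchor genes on the array 13 were tested, and the median was -0.38. Of these 13 genes 1 rose and 5 fell, where 14.0% of all tested genes rose and 18.8% fell. Akap12 was the anchor that rose. Lrba, a large vesicle protein with an anchor motif, fell by 0.81 ± 0.12 (SE, limma adjusted p = 0.00242). Of its other probes one was called, at -0.58, and one was not called, at -0.42. It was 0.16 higher on the spike-in scale after loess, and with slide row as a block the adjusted p was 0.0593. Named after their values were seen, Ezr, Rab32, Nbea and Akap9 fell by 0.80, 0.71, 0.60 and 0.38. On the spike-in scale after loess they were at 0.18, 0.27, 0.37 and 0.60, and with slide row as a block none was called (limma adjusted p from 0.0516 to 0.313). Ezr lost its call without WT pool 3 (0.0573) and Nbea without WT pool 1, 2 or 3 (0.0595, 0.0571 and 0.0962). Akap9 lost it without WT pool 1, 2 or 3 or MUT pool 3 (0.0622, 0.0809, 0.13 and 0.0811). Akap7, an anchor of calcium channels also chosen after its values were seen, was at -1.11 ± 0.40 (SE) and not called, with -2.26 in MUT pool 1 and -0.41 and -1.05 in MUT pools 2 and 3.

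Pde4d, a cAMP-specific phosphodiesterase, had log2 ratios of 0.17, 0.14 and 0.11 in WT pools 1 to 3, against -0.07, 0.22 and 0.12 in MUT pools 1 to 3 at its brightest probe. The groups overlapped, and MUT pool 1 was the lowest. The difference was -0.05 ± 0.11 (SE, limma adjusted p = 0.771), with an interval from -0.30 to 0.20. The other probe, well above background on 2 of 3 WT arrays, had 0.07, -0.27 and -0.12 in WT pools and 0.30, 0.29 and 0.09 in MUT pools. The groups did not overlap there, with WT pool 1 just under MUT pool 3, and the difference of 0.33 ± 0.12 (SE) was not called (limma adjusted p = 0.0863). With the spike-in controls after loess the brightest probe was called higher, at 0.93 (limma adjusted p = 0.0311). Without loess it was at 0.77 on that scale and not called (limma adjusted p = 0.0633). Both probes were dim, with Cy5 signals of 96 to 216 units.

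Of the 13 tested cAMP phosphodiesterases 2 fell and 1 rose, where 18.8% of all tested genes fell and 14.0% rose. Their list had a median of -0.16. Pde1a, which is activated by calmodulin, fell by 1.54 ± 0.20 (SE, limma adjusted p = 0.0015), a 2.91-fold change, but was at -0.56 and not called with the spike-in controls after loess (limma adjusted p = 0.174). Pde8b, a cAMP-specific enzyme, fell by 1.03 ± 0.14 (SE, limma adjusted p = 0.00186), but was at -0.05 with the spike-in controls after loess. Pde3b, named after its values were seen, rose by 0.42. It lost its call without WT pool 1 (limma adjusted p = 0.0690), without WT pool 3 (0.0693) and with slide row as a block (0.106). Rapgef3, the cAMP-gated exchange factor Epac1, fell by 1.13 ± 0.11 (SE, limma adjusted p = 0.00058). It was at -0.15 and not called with the spike-in controls after loess.

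Creb1, the transcription factor that PKA phosphorylates, gave different calls at its probes. The brightest had log2 ratios of -0.09, 0.27 and 0.18 in WT pools 1 to 3, against 0.23, 0.30 and 0.02 in MUT pools 1 to 3. The groups overlapped, and the difference was 0.06 ± 0.13 (SE, limma adjusted p = 0.753), with an interval from -0.24 to 0.37. It was called higher with the spike-in controls, at 1.04 after loess (limma adjusted p = 0.0179) and 0.91 without it (0.0297). The other probe had 0.02, -0.11 and -0.17 in WT pools and 0.43, 0.20 and 0.30 in MUT pools. Here the groups did not overlap, and the probe was called higher by 0.40 ± 0.11 (SE, limma adjusted p = 0.0296). That call was lost without WT pool 1 (0.0531), WT pool 2 (0.0810), WT pool 3 (0.125) or MUT pool 3 (0.0678), and with slide row as a block (0.320). The changes at the probes differed by 0.33 with an exact two-sided permutation p of 0.2. In the list of CREB family members, their coactivators and the kinases that act on these, 1 of 16 rose and 3 fell. Of all tested genes 14.0% rose and 18.8% fell, and the median of the list was -0.12. Crem, a CREB relative, fell by 0.38 ± 0.09 (SE, limma adjusted p = 0.0167), was at -0.22 and not called at its other probe, and was 0.59 higher with the spike-in controls after loess. Crtc3, a CREB coactivator, rose by 0.42 ± 0.11 (SE, limma adjusted p = 0.024) and was at -0.02 at its other probe. Both lost their call with slide row as a block (0.145 for Crem and 0.291 for Crtc3). Crem lost it also without WT pool 1, WT pool 3 or MUT pool 2 (0.0633, 0.0649 and 0.0521), and Crtc3 without WT pool 2, WT pool 3, MUT pool 2 or MUT pool 3 (0.0768, 0.0970, 0.0550 and 0.0734).

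**Figure D4:**
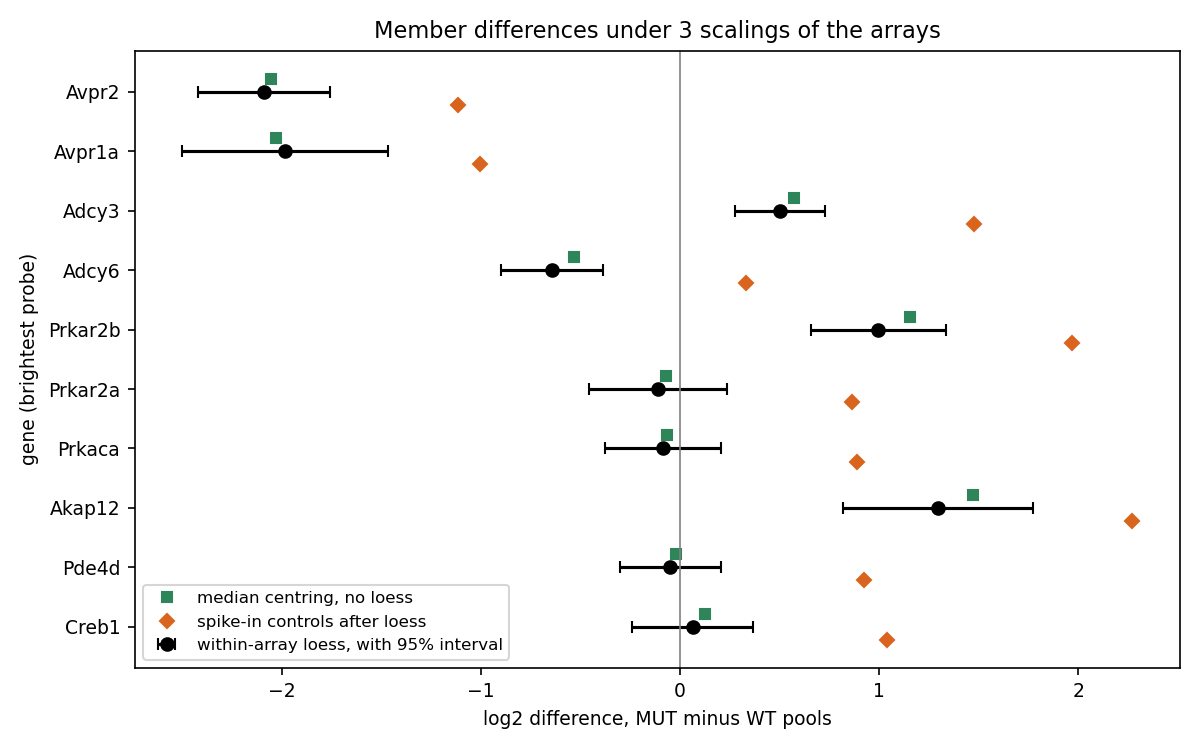
Log2 difference of MUT minus WT pools (x axis) for the brightest probe of each of the 10 genes (rows), where black points with bars are the loess values and their 95% intervals (3 pools per group). Green squares are the values with median centring and orange diamonds those with the spike-in controls after loess. The spike-in scale moves all 10 genes to the right by the same amount and puts Adcy6, Prkar2a, Prkaca and Pde4d above 0.

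Upstream of the cyclases, 6 of 11 tested receptors that couple to the stimulatory G protein fell and 5 were not called, where 18.8% of all tested genes fell, and the median was -0.40. Gcgr, the glucagon receptor, fell by 2.26 ± 0.19 (SE, limma adjusted p = 0.000435), and remained lower by the test with the spike-in controls after loess (-1.28). Adrb1, the beta-1 adrenergic receptor, fell by 1.60 ± 0.18 (SE) and Calcr, the calcitonin receptor, fell by 1.49 ± 0.15 (SE). Adora2b, an adenosine receptor, fell by 1.48 ± 0.18 (SE) and Pth1r, the parathyroid hormone receptor, fell by 1.31 ± 0.20 (SE). With the spike-in controls after loess these 4 were at -0.62, -0.52, -0.51 and -0.33, and were not called. Without loess, Adrb1 (-0.93) and Calcr (-0.84) were called lower (limma adjusted p = 0.0273 and 0.0436), while Adora2b and Pth1r were not called. The remaining receptor that fell, Vipr2 (-0.40), was at 0.57 on the spike-in scale after loess and not called. Of the receptors not called before, named after their values were seen, Adora2a, Ptger4, Sctr and Vipr1 were called higher on that scale. They were at 1.07, 0.89, 1.06 and 1.02, while Calcrl was at 0.75 and not called. Ptger4 and Vipr1 lost this call without loess (limma adjusted p = 0.0808 and 0.0933), while Adora2a and Sctr kept it (0.0176 and 0.0258). Vipr1 passed the filter on dim signals by its MUT signals only, so its call is affected by that selection. Its mean log2 Cy5 signal after loess and Aquantile was 6.42 in MUT pools and 6.45 in WT pools. The falls in this list thus depend on the scale. The second Adora2b probe fell by 0.47. Of 10 G protein alpha subunits 1 rose and 9 were not called, with a median of -0.05, where 14.0% of all tested genes rose. Gna13 rose by 0.47 ± 0.11 (SE, limma adjusted p = 0.0187), was at 0.40 and -0.13 and not called at its other probes, and lost its call without WT pool 2 or WT pool 3 (0.0620 and 0.0838) and with slide row as a block (0.244). Gnas, the stimulatory alpha subunit, named after its values were seen, was at -0.08 ± 0.10 (SE) and not called. With the spike-in controls after loess Gnas was called higher, at 0.89 (limma adjusted p = 0.0369). Of 7 receptor desensitisation genes 1 rose and 1 fell, with a median of 0.11. The receptor kinase Grk3 fell by 0.59 ± 0.12 and Grk5 rose by 0.52 ± 0.12 (SE), and neither was called with slide row as a block (limma adjusted p = 0.108 and 0.166). Grk3 was 0.38 higher with the spike-in controls after loess. Grk5 lost its call without WT pool 1, WT pool 3 or MUT pool 2 (0.0576, 0.0798 and 0.0542).

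Without the 10 genes, the pathway lists held 104 genes, of which 102 were on the array and 85 were tested. Of these 9 rose, 21 fell and 55 were not called, so that 35.3% were called, against the 32.8% of all tested genes given above. Their median was -0.14. With slide row as a block 11 of them were called, and 17 when WT pool 3 was left out. With the spike-in controls after loess 43 were higher and 1 lower, so the balance of rises and falls in these lists depends on the scale.

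**Figure D5:**
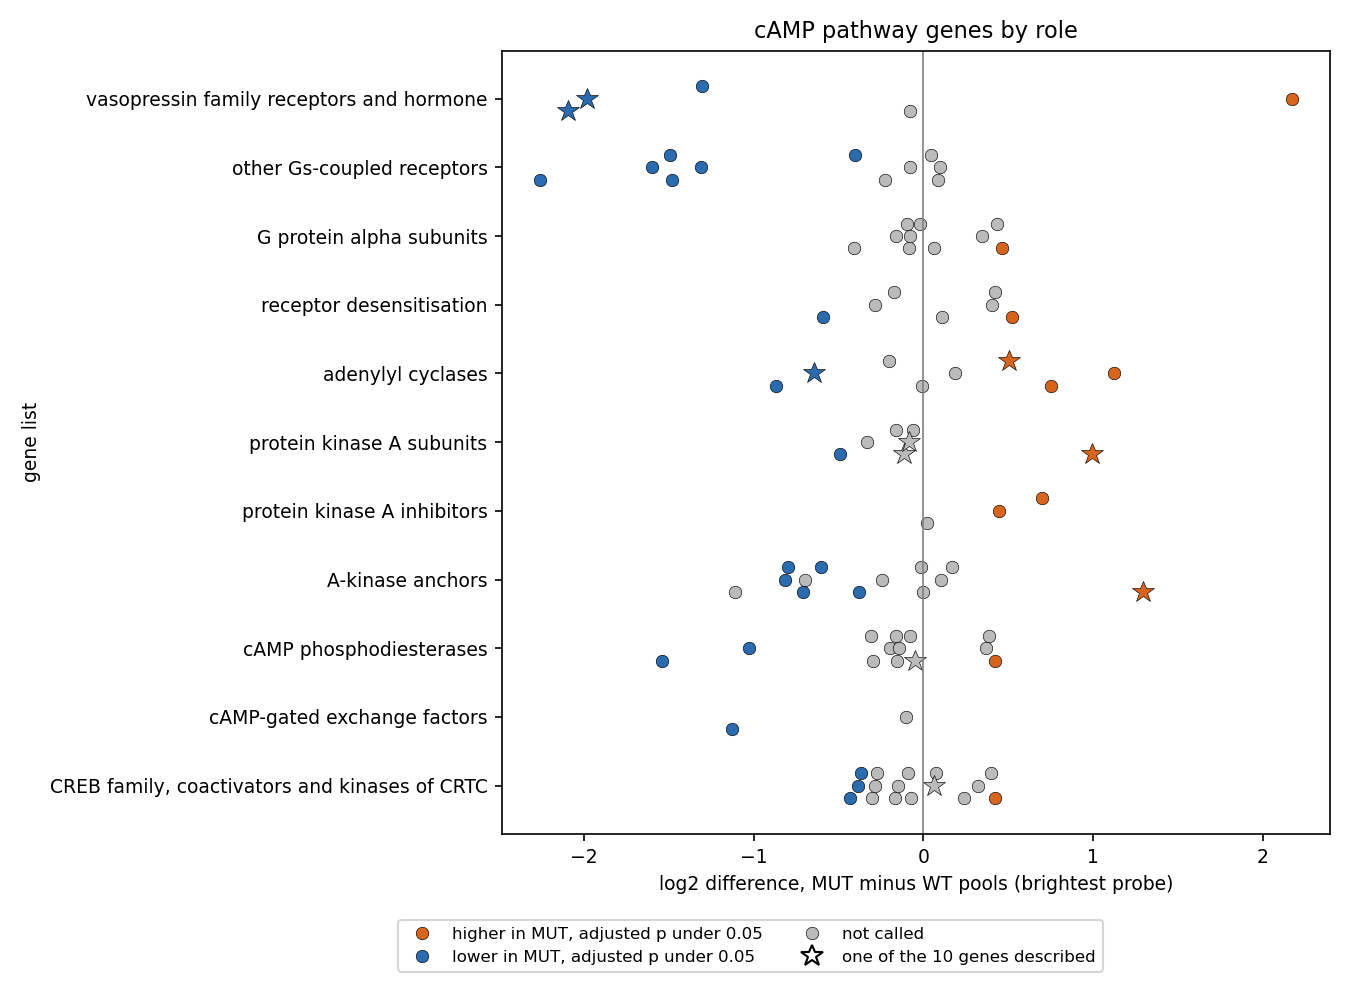
Log2 difference of MUT minus WT pools (x axis) for each tested gene of the 11 pathway lists (rows), by its brightest probe. Points are coloured by call, and stars mark the 10 genes described. The receptor lists hold most of the values under -1, and the lists of the G protein alpha subunits and CREB family lie within 0.5 of 0.

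The genes whose log2 ratios over the 6 arrays lay nearest to those of Avpr2 were Rhcg, an ammonia transporter, Cpsf4l, Scin, an actin-severing protein, Guca2a, which encodes guanylin, and Lgals3, which encodes galectin-3. Their Euclidean distances were 0.32, 0.34, 0.34, 0.35 and 0.37 log2 units, over 14585 tested genes. The genes nearest to Akap12 were Aoc3, an amine oxidase, C1ra, a complement protease, Hs3st6, a heparan sulfate sulfotransferase, Tmem119 and Antxr1, a collagen-binding receptor. Their distances were 0.26, 0.29, 0.31, 0.36 and 0.40 log2 units. All 5 neighbours of Akap12 had higher values in WT pool 1 than in WT pools 2 and 3, as Akap12 did, which the measure of distance selects for.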

How the data were processed

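The scanner files deposited by the authors give, for each spot and channel, the intensity as a median signal with its median local background. The submitters' processing notes name Agilent Feature Extraction 10.7.3.1. The authors' deposited value table, used as an alternative, gives the software's log10 ratio of the Cy5 and Cy3 channels. Dyes were not swapped. The file headers name another genome build than the gene table, so no probe coordinates are given.

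Background was corrected by normexp (offset 50) and log2 ratios were normalized by loess within each array, control spots at weight 0. The offset pulls ratios of dim probes toward 0, so their folds are understated. Spots marked as outliers were left out, and spots of a probe were averaged. A probe was tested if some group had it well above background in Cy5 on all of its 3 arrays (29002 of 55681). RefSeq accessions were matched to GRCm38.p6 symbols. MUT was compared with WT by limma 3.58.1 (lmFit, eBayes) in R 4.3.3 over all 6 arrays, with Benjamini-Hochberg adjustment, after testing the pipeline on simulated data. Gene pairs used exact permutation tests over pools. For Adcy3 the fold was also taken from mean log2 Cy5 signals after loess and Aquantile, and was again 1.42.

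The text names the 10 genes with all probes. From each pathway list it names the 2 called genes with the smallest p, and called genes with a log2 difference of at least 1 and groups that do not overlap. It also names the 5 nearest genes of Avpr2 and Akap12, and Bdkrb2. The genes and lists were chosen with earlier results of these data known. The analysis plan named mean signals, and median signals were used because the files give these. Alternatives covered background, normalization, spike-in scaling, filters, probe choice, blocks, weights and each pool left out. Slide row is that of the file headers.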

Additional observations from a re-analysis of the deposited data

How the results depend on the processing

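Avpr2, Avpr1a, Prkar2b and Akap12 kept their direction and call in all 19 alternatives, with ranges of -2.30 to -1.12, -2.58 to -1.01, 0.80 to 1.97 and 0.70 to 2.27. Adcy6 was called lower in 17 of 19, and was 0.33 and 0.25 with the spike-in controls after and without loess. Adcy3 was called in 17 of 18, with an adjusted p of 0.0898 with the slide row as a block. The uncalled genes turned sign. Prkar2a was 0.86 and 0.71 with the spike-in controls after and without loess, 4.13e-05 with array weights and 0.044 without MUT pool 1. Prkaca was 0.89 and 0.72 with the spike-in controls and 0.016 without WT pool 1. Pde4d was 0.93 and 0.77 with the spike-in controls, 0.0014 in the Cy5 channel alone, 0.14 as the mean of its probes, 0.015 with array weights and 0.032 without MUT pool 1. Creb1 was -0.040 without WT pool 1, and 1.04 and 0.91 with the spike-in controls after and without loess, where it was called. The lowest values over the pools left out were -0.23 for Prkar2a (without MUT pool 3), -0.16 for Prkaca (without WT pool 2) and -0.12 for Pde4d (without MUT pool 2). The change in Avpr2 minus Avpr1a was 0.10 with an offset of 1, 0.28 in the authors' value table, 0.043 in the Cy5 channel alone, 0.062 as a mean of probes, and -0.22 to 0.10 over the pools left out. Adcy6 minus Adcy3 was -1.68 with an offset of 1 and -2.38 in the authors' value table. The cause of these moves was not tested.

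The number of called probes was 19181 and 15429 with the spike-in controls after and without loess, 2194 with slide row blocked, and 3831 (without WT pool 3) to 9536 (without MUT pool 1) over the pools left out, with 4890 without WT pool 1. Of the called probes 44.2% were higher, against 58.2% with median centring, 99.0% and 98.3% with the spike-in controls and 31.5% with the slide row. The number of called pathway genes besides the 10 was 11 with slide row blocked and 17 to 36 over the pools left out. Same-numbered pools had correlations of 0.143, 0.072 and 0.197 in their deviations, so the numbers were not taken to pair them, although every pool correlated best with its own number. With the pool number as a replicate block 7245 probes, 6 of the 10 genes and 29 pathway genes were called, and no call of the 10 genes changed.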
